A study of Homo sapiens with 18 samples.

Results

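H3K9me3, H3K27me3 and SETDB1 binding were read over the human genes that write histone H3 lysine 9 methylation or work directly with the writers: SUV39H1, SUV39H2, SETDB1, SETDB2, EHMT1, EHMT2, ATF7IP, TRIM28, MPHOSPH8 and MORC2. They were chosen by name, as the known methyltransferases and partners, but with earlier results of these data known. The set is 10 of 19974 protein-coding genes on chromosomes 1 to 22 and X. Chromatin immunoprecipitation and sequencing was done in U937 cells, an established human monocytic line that the labels list as acute myeloid leukaemia (AML). Cells carrying a control guide (sgControl), cells with SUV39H1 knocked out (SKO) and cells with SUV39H1 and SUV39H2 both knocked out (DKO) gave 2 H3K9me3 and 2 H3K27me3 libraries each, and wild-type (WT) cells gave 2 SETDB1 libraries. Drosophila S2 chromatin was added to the histone mark precipitations. The labels do not say whether the knockout lines are clones or pools, or whether replicates are separate cultures, so the spread between libraries may be technical. Both knockouts were compared with the same 2 control libraries, so their values are not independent of each other.

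H3K9me3 marks silent heterochromatin and is bound by HP1 proteins. SUV39H1 and SUV39H2 write it over pericentromeric repeats and many transposable elements. SETDB1 writes it at retroelements and zinc finger genes, where the KRAB zinc finger corepressor TRIM28 brings it. ATF7IP binds SETDB1 and keeps it stable in the nucleus. MPHOSPH8 reads H3K9me3 within the HUSH silencing complex, whose other subunits include TASOR, and the ATPase MORC2 acts with HUSH. EHMT1 and EHMT2 form a heterodimer that writes H3K9 mono- and dimethylation, and SETDB2 is a relative of SETDB1.

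The measure was the percentage of the gene body, from the first to the last annotated base, that lay inside called domains of the mark. H3K9me3 domains held 16.5 to 23.6 M reads and covered 1012.51 and 1043.72 Mb in the control libraries against 753.538 to 794.657 Mb in the 4 knockout libraries. H3K27me3 domains held 47.9 to 70.7 M reads and covered 1057.54 to 1225.44 Mb. In the control libraries, 10 of 10 myeloid marker genes lay outside H3K27me3 domains and 8 of 10 outside H3K9me3 domains, the exceptions for H3K9me3 being ITGAM and PTPRC. Of 12 markers of T cells, B cells, erythroid and epithelial cells, 9 and 8 lay outside them too, so the domains do not set the myeloid markers apart. Domains show where a mark was called, not how much transcript or protein a gene gives, so they do not test the knockouts themselves.

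The promoters of 3 genes are shown because their H3K9me3 surroundings differed between the genotypes: the starts of ATF7IP and MORC2 entered H3K9me3 domains in the knockouts, and that of SETDB1 stayed just outside one. Each window runs from 250 bases before to 50 bases after the annotated start, in RefSeq GRCh38.p14, and was found for 9 of the 10 genes. Capitals mark the GC box GGGCGG and the CCAAT box CCAAT on either strand.
ATF7IP: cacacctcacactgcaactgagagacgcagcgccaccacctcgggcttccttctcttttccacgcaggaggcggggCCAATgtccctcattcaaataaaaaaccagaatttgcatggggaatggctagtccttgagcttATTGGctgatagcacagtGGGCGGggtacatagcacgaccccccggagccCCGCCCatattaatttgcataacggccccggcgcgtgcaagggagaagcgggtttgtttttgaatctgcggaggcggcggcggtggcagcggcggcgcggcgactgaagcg
MORC2: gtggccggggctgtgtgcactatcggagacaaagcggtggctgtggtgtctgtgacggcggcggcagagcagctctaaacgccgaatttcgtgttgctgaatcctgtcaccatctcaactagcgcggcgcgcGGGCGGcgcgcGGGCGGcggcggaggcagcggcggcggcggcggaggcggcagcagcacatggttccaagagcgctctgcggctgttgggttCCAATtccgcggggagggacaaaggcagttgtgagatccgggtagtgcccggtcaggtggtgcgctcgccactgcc
SETDB1: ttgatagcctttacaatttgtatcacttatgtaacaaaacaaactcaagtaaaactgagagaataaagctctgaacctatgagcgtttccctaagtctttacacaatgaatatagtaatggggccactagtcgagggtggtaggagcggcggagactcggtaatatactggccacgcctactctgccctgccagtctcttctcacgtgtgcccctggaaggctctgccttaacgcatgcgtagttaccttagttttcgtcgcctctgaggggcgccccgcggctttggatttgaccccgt
The ATF7IP window (chr12:14365432-14365731, plus strand) held 24 CpG dinucleotides, 2 GC boxes and 2 CCAAT boxes. The MORC2 window (chr22:30968725-30969024, minus strand) held 35 CpG, 2 GC boxes and 1 CCAAT box. The SETDB1 window (chr1:150926013-150926312, plus strand) held 15 CpG and none of these letters. Over 15812 promoters the median was 22 CpG, 58.3% held a GC box and 36.4% a CCAAT box. Both motifs are thus common, and a match is a description of the letters only.

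No H3K27me3 domain touched the set. All 10 genes had 0% of the gene body in an H3K27me3 domain in all 6 libraries, a state shared by 75.4% of all genes. None of the 10 was called in any H3K27me3 comparison, where 6.53% of genes were called in SKO against sgControl, 6.82% in DKO against sgControl and 1.09% in DKO against SKO. The nearest H3K27me3 domain was 4.86 kb away at its closest, for TRIM28, and 3205 kb away at its farthest, for SETDB2, both in sgControl 2. For TRIM28 it was near in the controls alone (6.46 and 4.86 kb), and lay 477.7 and 484.9 kb away in SKO and 240.9 and 248.1 kb away in DKO. Around MPHOSPH8 it lay 48.1 kb away in every library.

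H3K9me3 divided the set into 5 genes without a domain in any library and 5 with one. Over all genes, 57.4% had none. Of the 5 with a domain, SETDB1, SETDB2, ATF7IP and MORC2 had a higher percentage in each of the 4 knockout libraries than in either control library, and none was lower in all 4. Among the 8506 genes with a domain in any library, 23.3% were higher in this way and 18.1% lower. This count was made after the values were seen. A gene was called gained or lost when the 2 libraries of one genotype did not overlap those of the other and a gap of 25 percentage points or more separated them. Under this rule no member was called in SKO, where 4.11% of genes were gained and 4.5% lost. In DKO 1 member was gained, SETDB2, against 3.84% of genes gained and 4.23% lost. The median difference over the 10 members was 1.29 points in SKO and 2.30 points in DKO, and it was 0 over all genes in both. Neither median describes the set: 57.4% of all genes and 5 of the 10 members had no domain, so the first is fixed at 0 and the second rests on EHMT1. With a gap of 10 points, SETDB1 and SETDB2 were gained in SKO (8.56% of genes) and SETDB1, SETDB2 and MORC2 in DKO (7.56%). With limma, which compares the percentages of all 6 libraries gene by gene, 3 members were higher at an adjusted p under 0.05 in each knockout: SETDB1, SETDB2 and MORC2. Of the 8506 genes fitted, 17.2% were higher in SKO and 14.6% in DKO, and 11.5% were lower in each. SETDB1 and MORC2 had no domain in the controls and 1 in all 4 knockout libraries, which held for 5.22% of genes.

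**Figure D1:**
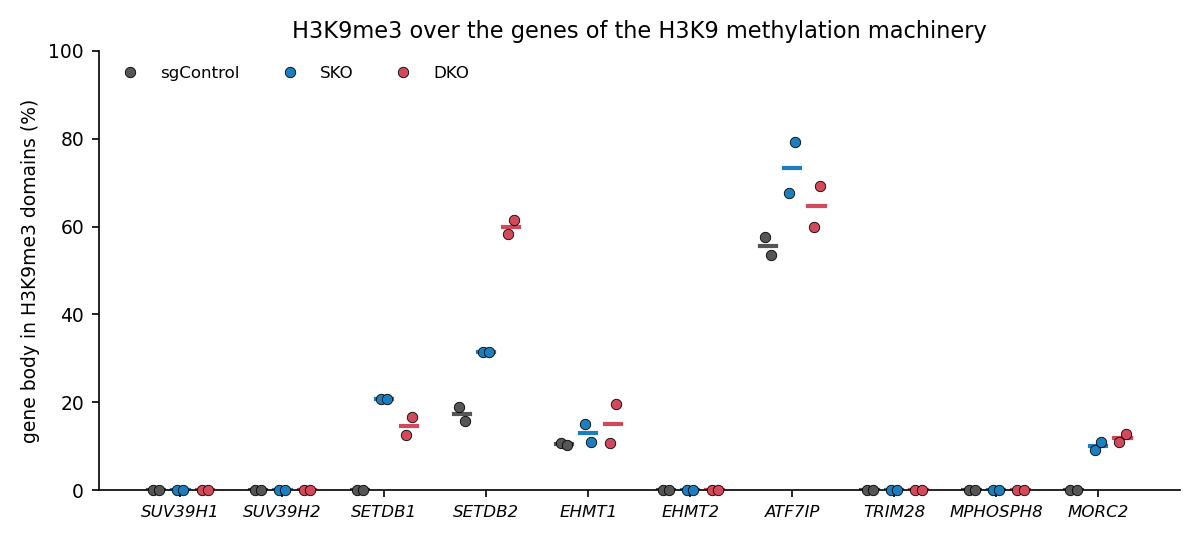
Percentage of each gene body inside H3K9me3 domains (vertical axis) for the 10 genes, with 1 point per library and a short line at the mean of the 2 libraries of each genotype. SUV39H1, SUV39H2, EHMT2, TRIM28 and MPHOSPH8 lie at 0% throughout, SETDB2 goes from 15.8% and 18.9% in the controls to 58.3% and 61.5% in DKO, and SETDB1 and MORC2 lie at 0% in the controls alone.

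The 2 targeted genes carried neither mark. SUV39H1 (chrX:48695554-48709016) had 0% of its 13.5 kb in H3K9me3 domains in each of the 6 libraries, and the nearest domain lay 251.6 to 601.2 kb away. SUV39H2 (chr10:14878866-14904315) was likewise at 0% in all 6 libraries, but domains came within 3.69 kb of it in the library where they were closest. In the 100 kb on either side of SUV39H2, H3K9me3 domains filled 2.00% ± 2.83 in sgControl, 5.80% ± 0.283 in SKO and 6.80% ± 0.566 in DKO (SD, n = 2 each). Neither gene had a SETDB1 peak.

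SETDB1 (chr1:150926263-150964737, 38.5 kb) had a domain in the knockouts and none in the controls. Its H3K9me3 coverage was 0% in both control libraries, 20.8% in both SKO libraries, and 12.5% and 16.6% in the DKO libraries. No knockout library overlapped the controls. The difference from sgControl was 20.8 points (SE 1.62, limma adjusted p = 0.00490) in SKO and 14.6 points (SE 1.62, limma adjusted p = 0.0116) in DKO, and DKO and SKO did not differ past the threshold (limma adjusted p = 0.159). The nearest pair differed by less than 25 points, so SETDB1 was not called by the rule of 25 points. With only the upper 50% of domains by score in each library, the DKO difference was 6.24 points. The domain was 4.8 to 8.0 kb wide and held 180 to 338 reads per library. It began 0.938 to 2.54 kb after the start and ended 7.34 to 9.74 kb after it, so the start itself was in no domain. In the control libraries SETDB1 lay 0% covered over 100 kb on either side.

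SETDB2 (chr13:49444274-49495003, 50.7 kb) already held an H3K9me3 domain in control cells, and it was wider in each knockout. Coverage was 18.9% and 15.8% in sgControl, 31.5% in both SKO libraries, and 58.3% and 61.5% in DKO. No 2 of the 3 genotypes overlapped. The difference was 14.2 points (SE 1.73, limma adjusted p = 0.0134) for SKO against sgControl, 42.6 points (SE 1.73, limma adjusted p = 0.00115) for DKO against sgControl, and 28.4 points (SE 1.73, limma adjusted p = 0.00929) for DKO against SKO. SETDB2 was the only one of the 10 called in DKO against SKO, where 1.46% of all genes were gained and 1.34% lost. With domains cut to the same covered length in all libraries, which shortens the control lists most, SETDB2 was also called in SKO, at a difference of 31.5 points. That is the whole SKO coverage, because the cut removed the control domain. This domain scored above only 58.2% and 49.3% of the domains of its library. With the upper 50% of domains it was lost from sgControl 2, and the SKO difference was 22.1 points. With limma 2.69% of the genes fitted were higher in DKO than in SKO and 3.67% lower. A single domain inside the gene measured 9.6 and 8.0 kb in sgControl, 16 kb in both SKO libraries, and 29.6 and 31.2 kb in DKO. Reads in it were denser too, at 1.33 and 1.48 times the median domain density of the library in sgControl, 2.19 and 2.35 times in SKO, and 2.06 and 1.98 times in DKO. Its near edge lay 10.1 and 11.7 kb after the start in sgControl and 5.33 to 7.73 kb after it in the knockouts. In the DKO libraries another domain ended 1.87 kb before the start, and the start itself was in no domain of any library.

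The neighbours of SETDB2 did not all move alike. PHF11, which lies just downstream, had 0% in both controls, 33.9% and 29.1% in SKO, and 53.3% and 43.6% in DKO. CAB39L, just upstream, had 47.3% and 53.2% in the controls and 30.7% to 38.4% in the knockouts. A SETDB2-PHF11 readthrough gene is annotated over both SETDB2 and PHF11, so the domain belongs to it as well. Leaving out genes that overlap SETDB2, such as the readthrough gene, the genes with the most similar H3K9me3 values over the 6 libraries were IFT25, KSR2 and MEGF11, with mean absolute differences from SETDB2 of 3.08, 4.36 and 6.0 points.

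**Figure D2:**
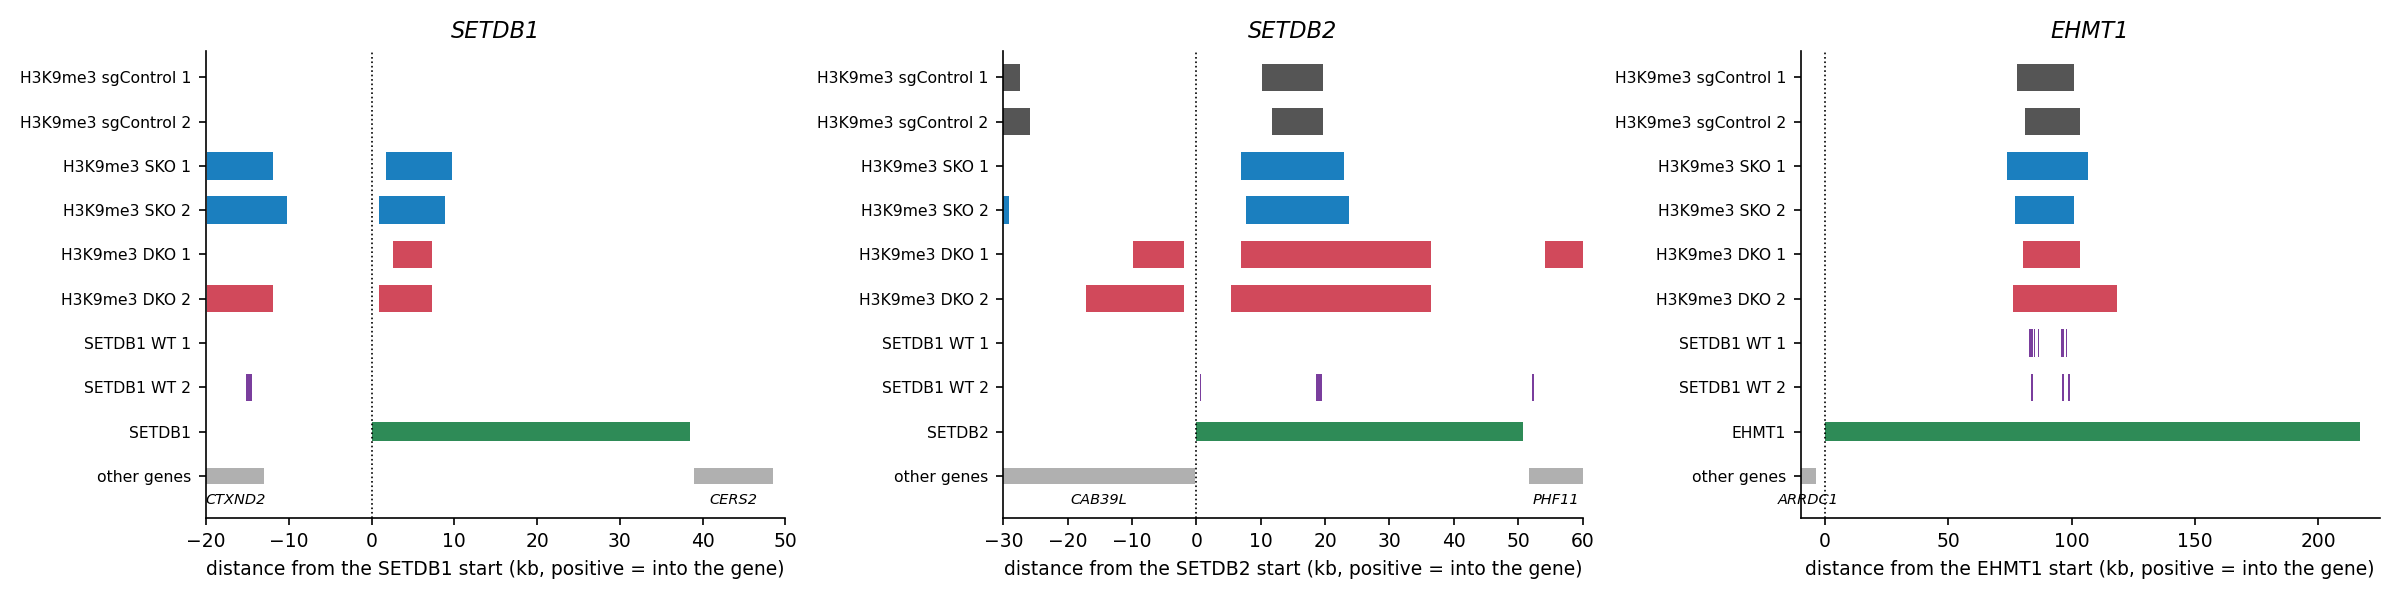
H3K9me3 domains of each library and WT SETDB1 peaks (coloured bars) around SETDB1, SETDB2 and EHMT1, drawn against distance from the annotated start in kb, with the gene in green and neighbouring genes in grey. The SETDB1 domain appears in the 4 knockout rows, the SETDB2 domain reaches 36.5 kb after the start in both DKO rows, and the EHMT1 domain lies in the middle of the gene in all 6 rows.

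EHMT1 and EHMT2 differed from each other in every library. EHMT1 (chr9:137619005-137836127, 217 kb) carried 1 H3K9me3 domain of 22.4 to 42.4 kb, which lay between 73.8 and 119 kb after the start. Its coverage was 10.7% and 10.3% in sgControl, 15.1% and 11.1% in SKO, and 10.7% and 19.5% in DKO. Both SKO libraries lay above the controls, while the lower DKO library was level with the higher control, and neither knockout differed past the threshold (limma adjusted p = 0.695 for SKO and 0.449 for DKO). The difference from sgControl was 2.58 points (SE 3.70) in SKO and 4.61 points (SE 3.70) in DKO. These became 7.92 and 9.95 points with equal covered length. EHMT2 (chr6:31879759-31897698) was at 0% in all 6 libraries, with the nearest domain 316.7 to 359.1 kb away.

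ATF7IP (chr12:14365682-14502930, 137 kb) was the most covered of the 10, and its start changed. H3K9me3 covered 57.7% and 53.6% of the gene in sgControl, 67.6% and 79.2% in SKO, and 59.98% and 69.3% in DKO. The knockout libraries were all above the controls, but the differences of 17.7 points in SKO (SE 5.86, limma adjusted p = 0.12) and 8.98 points in DKO (SE 5.86, limma adjusted p = 0.414) did not pass the threshold. They were 35.5 and 26.8 points with equal covered length, where ATF7IP was called in SKO, and 27.6 and 18.9 points with the upper 50% of domains. Both cuts dropped lower-scoring control domains, so these larger differences rest on shorter control lists. Over the 4 kb window centred on the start, coverage was 0% and 28.0% in sgControl and 100% in each of the 4 knockout libraries. In the controls an unmarked stretch of 12.8 and 4.8 kb separated the domains on either side of the start. In the knockouts 1 domain of 112.8 to 145.6 kb ran across it, with 1.74 to 2.10 times the median domain density of its library, against 0.908 to 1.20 times for the control domains listed for this gene. ATF7IP has 6 annotated starts, and the first lay in no control domain and in all 4 knockout domains, while each of the other 5 lay in a domain in at least 1 control library. The region towards the end of the gene held a domain in all 6 libraries.

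TRIM28 (chr19:58544064-58550715, 6.65 kb) was at 0% in all 6 libraries. The nearest H3K9me3 domain lay 6.46 kb away in sgControl 1 and 25.7 to 83.3 kb away in the other libraries. Its strand and start were not used here, so it has no start window.

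MPHOSPH8 and MORC2, the genes of the HUSH reader and of the ATPase that acts with it, differed. MPHOSPH8 (chr13:19633659-19673441) was at 0% in all 6 libraries, with the nearest domain 41.7 to 595.4 kb away. MORC2 (chr22:30925130-30968774, 43.6 kb) was at 0% in both controls, 9.11% and 10.9% in SKO, and 10.9% and 12.8% in DKO. The knockout libraries did not overlap the controls. The difference was 10.0 points (SE 1.05, limma adjusted p = 0.00945) in SKO and 11.9 points (SE 1.05, limma adjusted p = 0.00685) in DKO, with no difference past the threshold between DKO and SKO (limma adjusted p = 0.531). The covered part was the start of the gene. The window of 2 kb on either side of the start was at 0% in both controls and 100% in all 4 knockout libraries.

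In the control libraries no H3K9me3 domain lay within the 2592.8 and 2606.4 kb around the MORC2 start. In the knockouts a domain of 22.4 to 29.6 kb covered it, holding 1030 to 1387 reads at 1.81 to 2.71 times the library's median domain density. It reached 3.97 to 5.57 kb into MORC2 and 17.6 to 24 kb upstream, across the whole of TUG1 (chr22:30969265-30979395), a gene that starts beside MORC2 on the other strand. TUG1 was at 0% in both controls and 100% in the 4 knockout libraries.

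**Figure D3:**
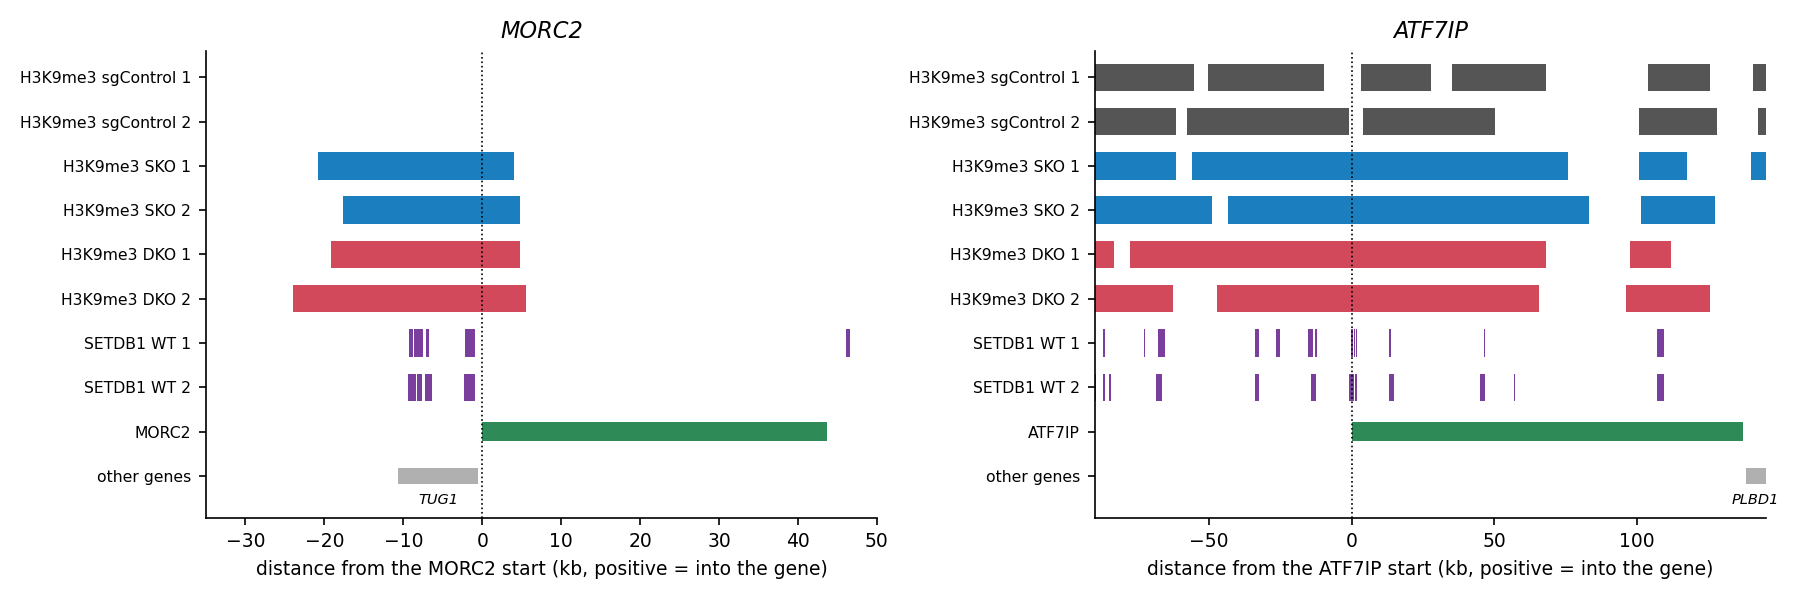
H3K9me3 domains of each library and WT SETDB1 peaks (coloured bars) around MORC2 and ATF7IP, against distance from the annotated start in kb, with the gene in green, neighbours in grey and a dotted line at the start. At both genes the dotted line crosses no control domain and crosses a domain in all 4 knockout rows.

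ATF7IP and MORC2 were thus gained at the start in both knockouts. Among the 9 members with an annotated start, 2 were gained in SKO, where 3.57% of genes were gained, and 2 in DKO, where 3.74% were. None was lost, against 3.26% of genes in SKO and 2.99% in DKO. Between DKO and SKO no start of a member was called (1.39% of genes gained, 1.32% lost). In both knockouts together 2.37% of genes were gained and 2.07% lost. A change from 0% in both controls to 100% in all 4 knockout libraries, as at MORC2, was found for 0.885% of genes. The other members gave 0% in every library except SETDB1, at 0% in both controls, 6.57% and 26.6% in SKO and 0% and 26.6% in DKO, and SETDB2, at 3.17% in both DKO libraries.

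**Figure D4:**
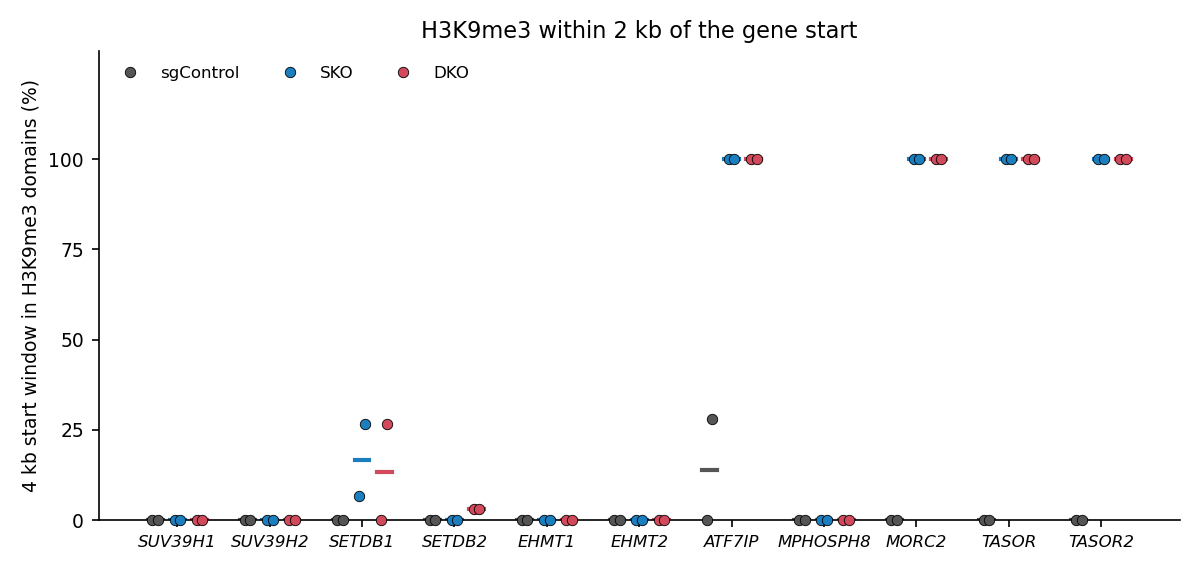
Percentage of the 4 kb window centred on the annotated start that lay in H3K9me3 domains, with 1 point per library and a short line at the mean of each genotype. ATF7IP, MORC2, TASOR and TASOR2 stand at 100% in all 4 knockout libraries, and their control libraries lie between 0% and 28.0%.

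Among 32 other genes of H3K9 methylation (readers, HUSH subunits, cofactors, PRDM family members and demethylases), gene-body H3K9me3 was gained in 4 and lost in 1 in SKO (4.11% and 4.5% of all genes), and gained in 3 and lost in 1 in DKO (3.84% and 4.23% of all genes). CDYL, which encodes a chromodomain corepressor, had 14.1% and 5.13% in sgControl, 55.2% and 55.5% in SKO, and 54.2% and 53.9% in DKO. Its relative CDYL2 had 23.6% and 15.4%, 71.7% and 74.5%, and 44.1% and 50.7%, in the same order, and was called in SKO. ZNF644, a zinc finger partner of EHMT1 and EHMT2, had 0% and 8.99% in sgControl, 52.9% and 40.9% in SKO, and 35.2% and 40.5% in DKO. PHF2, a demethylase family gene, went from 0% in both controls to 49.7% and 52.8% in SKO, and stood lower in DKO at 21.7% and 11.7%, a loss against SKO (1.34% of all genes). TASOR2, a relative of TASOR, had 19.3% and 0% in sgControl, 40.5% and 44.6% in SKO, and 44.6% and 47.6% in DKO, and was called in DKO. MECOM, which encodes a PR-domain factor, was the gene that lost, from 55.3% and 62.8% to 8.82% and 4.83% in SKO and 23.3% and 10.9% in DKO. For H3K27me3, 26 of the 32 were at 0% in all libraries (75.4% of all genes) and 1 was called: PRDM16 was lost in SKO, from 96.0% and 95.7% to 69.8% and 67.6% (3.15% of genes were lost).

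At the start, TASOR and TASOR2 were the only 2 of 28 genes of the wider list gained in both knockouts, each from 0% in both controls to 100% in all 4 knockout libraries. Over all genes 2.37% were gained in both knockouts, and 0.885% went from 0% to 100% in this way. TASOR was picked out after its values were seen. The TASOR domain was 15.2 to 21.6 kb wide, with 1.09 to 1.51 times the median domain density of its library. It scored above only 61.0% to 75.9% of the domains there. The TASOR2 domain was 44.8 to 52.8 kb wide, with 2.83 to 3.12 times the median density, and scored above 99.0% to 99.4% of domains.

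WT SETDB1 peaks lay at some genes of the pathway and not at SETDB1 itself. Most members, like most of all genes, had no peak found in both libraries. A peak in both WT libraries, in the gene body or within 2 kb of it, was found for 3 of the 10 genes: ATF7IP, EHMT1 and MORC2. Over all genes the share was 20.6%, with 47.0% among genes of 100 kb or more and 15.2% among shorter ones, with ATF7IP and EHMT1 being in the longer class. SETDB2 had 3 peaks in 1 library and none in the other, and TRIM28 had 1 peak in 1 library. SUV39H1, SUV39H2, SETDB1, EHMT2 and MPHOSPH8 had none. In the wider list 13 of 32 genes (40.6%) had a peak in both libraries. Its genes were longer, at a median of 81.6 kb against 24.2 kb over all genes, so the 20.6% is not a like share. Of the 3 members with one, MORC2 dropped out with the gene body alone, and with a deposited −log10 p of at least 10. EHMT1 dropped out when the peak had to lie within 1 kb of the start.

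The EHMT1 peaks, 5 in the first library and 4 in the second, all had summits inside the H3K9me3 domain of every one of the 6 libraries. The strongest lay 96.5 and 96.4 kb after the start, with a deposited −log10 p of 15.0 and 13.0. ATF7IP had 6 and 8 peaks. Its strongest lay 108 kb after the start (−log10 p of 17.1 and 15.2), inside a domain in all 6 libraries. The peaks nearest the ATF7IP start had summits 0.285 kb after and 0.122 kb before it (−log10 p of 7.72 and 7.68), and spanned the promoter window printed above. Their summits were in no control H3K9me3 domain and in all 4 knockout domains. The outer edge of the WT 2 peak (chr12:14364661-14366600) did overlap an sgControl 2 domain that ended at 14364800. The MORC2 peak had its summit 1.81 and 1.74 kb upstream of the start, inside TUG1, with a −log10 p of 15.2 and 7.29. Its summit too was in no control domain and in all 4 knockout domains. For TUG1 itself, 4 peaks were counted in each WT library. SETDB1 was profiled in WT cells alone, so its binding in the knockouts was not measured. Over all peaks, 62.4% to 64.9% of summits lay in control H3K9me3 domains and 75.8% to 79.5% in knockout domains.

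**Figure D5:**
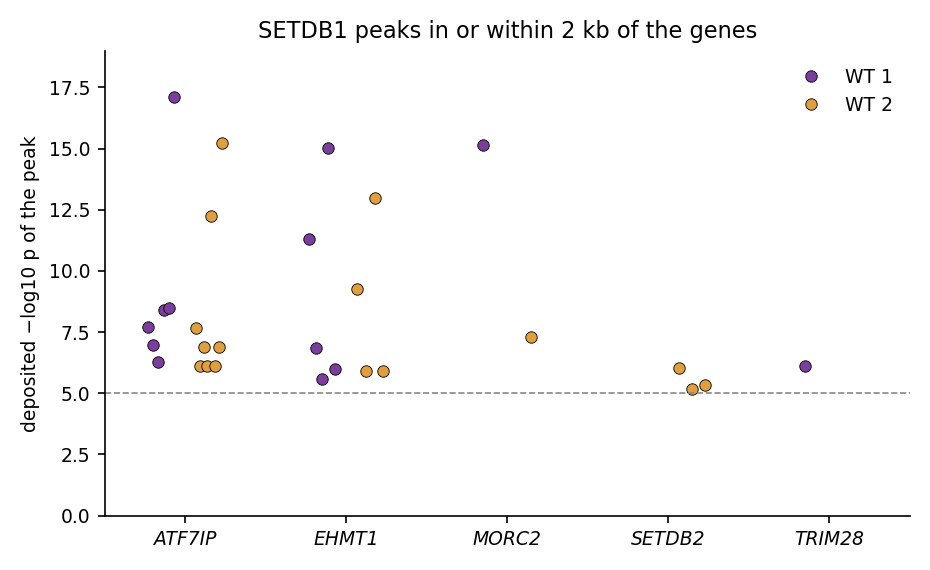
Deposited −log10 p of each SETDB1 peak in or within 2 kb of the 5 genes that had one, with 1 point per peak and the 2 WT libraries in separate colours, and a dashed line at 5. The strongest ATF7IP and EHMT1 peaks reach 13.0 to 17.1 in both libraries, whereas SETDB2 and TRIM28 have peaks in 1 library each.

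A SETDB1 peak in both libraries lay in the start window of ATF7IP, MORC2, TASOR and TASOR2, the 4 genes among the members and the wider list that were gained at the start in both knockouts. In the wider list 6 starts had such a peak, and the other 4 (PRDM2, KDM3A, KDM3B and KDM4D) were not gained in both. KDM3A was already covered in the controls, at 100% and 76.1%, PRDM2 was gained in SKO, and KDM3B and KDM4D were gained in DKO. Over all genes with an annotated start, 7.07% had one, and of the 374 genes gained at the start in both knockouts 32.1% (120 genes) did. The peaks and the domains come from different cells and different libraries, and what links them was not tested.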

How the data were processed

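The data are ChIP-seq domain and peak lists on hg38, 1 per library. The lists give no input counts and no spike-in factor, and whether these entered the calling is not stated in the labels. The deposited H3K9me3 and H3K27me3 lists hold epic2 domains with a read count and a score per domain, as deposited by the authors. Domain edges lie on an 800 bp grid. The deposited SETDB1 lists hold narrow peaks with a signal (fold enrichment), a −log10 p and a −log10 q per peak, as deposited by the authors. The submitters' processing notes name Trim Galore 0.6.10, FastQC 0.12.1, deepTools 3.5.6 and SICER. The aligner, the SETDB1 peak caller and the treatment of multi-mapping reads are not stated in the labels.

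Genes were 19974 protein-coding genes of RefSeq GRCh38.p14 on chromosomes 1 to 22 and X. The share of each body, and of 2 kb on either side of the start for 15812 genes, was computed with Python 3.11.15, numpy 2.4.6 and pandas 2.3.3 and drawn with matplotlib 3.10.9. With 2 libraries against 2, an exact permutation test cannot go below 1 in 3, so a call needs non-overlap and a gap of 25 points. limma 3.58.1 (R 4.3.3) was fitted to the percentages of 6 libraries per mark over genes with any domain, 8506 for H3K9me3, with Benjamini-Hochberg adjustment. Calls and fits were also run on simulated percentages, with noise of the same size for every gene with a domain. That differs from members such as SETDB1, whose SKO libraries had equal values, so the run does not check limma at such genes. A SETDB1 peak needed 1 base of overlap.

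The members and lists were chosen with earlier results of these data known. All members are named, the called genes of the wider list, at most 8 for each mark, and the 3 genes most like a called member. No exon annotation was used, and the 4 input samples were not analysed here.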

Additional observations from a re-analysis of the deposited data

How the results depend on the processing

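Of 105 alternative differences of single members, 103 kept their sign, the exceptions being EHMT1 in DKO against SKO without SKO replicate 2 (0 points) and without DKO replicate 2 (-2.39 points). Without any single library, no member other than SETDB2 was called in DKO or in DKO against SKO. The call of SETDB2 itself could not fail there, because leaving out a library cannot narrow a gap. For SKO the count of members with an H3K9me3 call, 0 by the rule of 25 points, was 2 at a gap of 10 points (SETDB1 and SETDB2), 2 with domains cut to equal covered length in all libraries (SETDB2 and ATF7IP), 3 with limma, and 2 in start windows of 2 kb and of 1 kb. In DKO (1) there were 3 at a gap of 10 points, 0 at 50 points, 3 with limma, and 2 in start windows of 2 kb and of 1 kb. In DKO against SKO (1) there were 0 at 50 points and 0 in start windows. Gap changes count fewer or more genes by construction, and the equal-length setting shortens the control lists most. The start gains of ATF7IP and MORC2 in both knockouts remained when lists were cut to equal covered length or to their higher-scoring 50%. Their knockout domains scored above 95.3% to 98.7% of the domains of their library. Cuts by score keep such domains and can only lower the controls, so this outcome was all but fixed. The gains also remained in a 1 kb window, at a gap of 50 points and without any single library, but these 3 settings could not fail. The start windows were at 100% in all 4 knockout libraries and at 28.0% or less in the controls, which fixed the outcome. The settings for the start gains in both knockouts, and the 1 kb window, were chosen after seeing the data.

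For the wider list H3K9me3 calls in SKO went from 5 to 10 at a gap of 10 points and 0 at 50 points, in DKO from 4 to 8 and 0, and in DKO against SKO from 1 to 3 and 0, with 2 in start windows and 1 to 2 when leaving out each library. H3K27me3 calls in SKO went from 1 to 0 at 50 points, 3 in the upper 50% of domains, 0 in start windows and 1 to 2 when leaving out each library. In DKO they went from 0 to 1 at 10 points, 2 in the upper 50%, 1 with limma, and 0 to 1 when leaving out each library. The cause was not tested.

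Replicate numbers did not pair the samples, with correlations of same-numbered deviations of -0.014 to 0.050. With a replicate block, limma called 2 members in SKO (SETDB1 and MORC2), 3 in DKO and 0 in DKO against SKO for H3K9me3, 2 and 0 genes of the wider list in DKO and in DKO against SKO, and 1 for H3K27me3 in DKO. The 180 to 338 reads of the SETDB1 domain limit how finely an edge can be placed on the 800 bp grid.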

Other observations

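EHMT1 held a domain of its own in all 6 libraries, and the regions beside it differed between the genotypes. In the 100 kb on either side of the gene, H3K27me3 domains filled 35.1% ± 3.68 in sgControl, 4.0% ± 5.66 in SKO and 11.6% ± 0.0449 in DKO (SD, n = 2 each). H3K9me3 domains there filled 16.5% ± 13.6, 0.432% ± 0.611 and 0% in the same order. The genotypes did not overlap for H3K27me3, while the gene body itself was at 0% in all 6 libraries. Lower H3K27me3 in the flanks was not particular to EHMT1. The mean was 8.77% in sgControl and 0% in each knockout for TRIM28, 5.6% and 0% for ATF7IP, and 11.6% and 4.4% for MPHOSPH8. The flanks of the other members held no H3K27me3 domain in any library. These flanks were looked at after the data were seen and were not tested. Flanks were measured for the members alone, so no share over all genes stands beside these values. Whether the drop is more common here than elsewhere was not tested.

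PLBD1, the neighbour downstream of ATF7IP, had 88.3% and 44.8% of its body in H3K9me3 domains in sgControl, 29.9% and 23.7% in SKO, and 37.4% and 9.97% in DKO. Its knockout libraries were all below the controls, where those of ATF7IP were all above.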
